A study of Mus musculus with 4 samples.

Results

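The 10 genes described here, Psmb8, Psmb9, Psmb10, Psme1, Psme2, Tap1, Tap2, Tapbp, B2m and Nlrc5, encode the immunoproteasome and the machinery that loads peptides onto class I molecules of the major histocompatibility complex (MHC). They were taken by symbol from the 24346 genes listed in each library. Liver of wild-type male C57BL/6 mice was studied by sequencing of messenger RNA, at 13600000 to 17000000 mapped reads per library as recovered from the deposited values. All mice received the NASH diet, which is rich in fat, cholesterol and sucrose, contains bile salt and induces steatohepatitis, for 3 weeks. In the 7KC group (n = 2) the diet also contained 7-ketocholesterol (7KC), an oxysterol, and in the control group (n = 2) it did not. No group on normal chow was analysed here, so the control group is itself a model of steatohepatitis. Nothing in the labels says that the 2 libraries of a group came from separate mice, so p-values measure the spread between these libraries. The question was how the genes of class I peptide processing differed in the liver between mice given the diet with and without 7KC.

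Cells cut cytosolic proteins into peptides with the proteasome, a barrel whose catalytic subunits are Psmb5, Psmb6 and Psmb7 in most tissues. Under interferon-γ, and constitutively in many leukocytes, newly assembled barrels take up Psmb8, Psmb9 and Psmb10 in their place, and this form is called the immunoproteasome. Psme1 and Psme2 form the cap PA28, which opens the barrel. Tap1 and Tap2 together pump peptides into the endoplasmic reticulum, tapasin (Tapbp) holds the empty class I molecule next to this pump, and β2-microglobulin (B2m) is the invariant light chain of every class I molecule. Nlrc5 is a transactivator that raises the transcription of class I heavy chains, B2m, Tap1 and Psmb9 from promoters with X and Y boxes. In a healthy liver, hepatocytes express little of the immunoproteasome compared with leukocytes.

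Of the 10 genes, 5 lie on chromosome 17 (mm10, GENCODE M21 annotation) in the MHC. Psmb9 (34181987 to 34187764, minus strand), Tap1 (34187553 to 34197225, plus strand), Psmb8 (34197721 to 34201454, plus strand) and Tap2 (34203527 to 34216321, plus strand) follow each other. Tapbp (33915899 to 33929292, plus strand) lies 253 kb before Psmb9. The annotated Psmb9 and Tap1 genes run in opposite directions and overlap by 212 bases, and since strand handling in the counting was not stated, reads in this stretch could have been given to either gene. Psme1 (55578123 to 55581529, plus strand) and Psme2 (55587441 to 55591113, minus strand) are neighbours on chromosome 14. Nlrc5 (94434356 to 94527272, plus strand) and Psmb10 (105935735 to 105938444, minus strand) lie apart on chromosome 8, and B2m (122147686 to 122153083, plus strand) lies on chromosome 2. All 10 are protein-coding genes.

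RefSeq promoter windows (GRCm38.p6, 300 bases each, 250 before and 50 after the start site) were found for 8 of the 10 genes, and Tap2 and Nlrc5 had none in the table. The 2 sequences below are shown because they belong to 3 known targets of Nlrc5, of which B2m had the smallest and Psmb9 and Tap1 the largest log2 changes. Capitals mark matches, on either strand, to the letters TGACG (the core of the X2 box), CCAAT (the core of the Y box), GAAA, any 2 bases and GAAA (the core of an interferon-stimulated response element) and TTCNNNGAA (a GAS element), and to the NF-kB consensus. Neither printed sequence held the GAS letters.
B2m, 250 bases before the start site, chr2:122147437-122147686, plus strand: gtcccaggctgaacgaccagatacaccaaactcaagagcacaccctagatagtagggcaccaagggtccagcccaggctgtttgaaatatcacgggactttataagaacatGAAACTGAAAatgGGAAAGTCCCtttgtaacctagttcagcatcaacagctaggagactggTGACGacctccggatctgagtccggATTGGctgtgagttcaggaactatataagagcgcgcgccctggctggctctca
Psmb9 and Tap1, the 225 bases between their start sites, chr17:34187331-34187555, plus strand: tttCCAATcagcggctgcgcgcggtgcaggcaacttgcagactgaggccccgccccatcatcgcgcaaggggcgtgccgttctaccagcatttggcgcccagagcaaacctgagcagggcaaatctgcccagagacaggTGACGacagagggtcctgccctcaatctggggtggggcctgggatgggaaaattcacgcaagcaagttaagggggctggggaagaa

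By their RefSeq start sites, Psmb9 and Tap1 thus share 1 short stretch from which they are transcribed in opposite directions. In the GENCODE annotation given above this stretch lies within the bounds of Psmb9, which overlap those of Tap1. The windows of B2m, Psmb9 and Tap1 held both TGACG and CCAAT, as did 7.73% of the 32851 windows in the table. Their spacing differed between the printed sequences. TGACG and the CCAAT match began at bases 173 and 198 for B2m, and at bases 140 and 4 for Psmb9 and Tap1. The windows of Psmb9 and Tap1 overlap. TGACG was in the windows of 4 of the 8 genes and in 20.8% of all windows, and CCAAT in those of 4 and in 37.4%. The interferon-stimulated response element core was in the windows of B2m and Psme1 and in 3.44% of all windows. The GAS letters were in that of Psmb8 (8.3% of all windows) and the NF-kB consensus in that of B2m (4.51%). No match overlaps another in the printed sequences, and a match describes letters, not an occupied site.

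All 10 genes had a higher level in both 7KC libraries than in both control libraries. By log2 change the order was Psmb9, Tap1, Psmb10, Psmb8, Tapbp, Nlrc5, Tap2, Psme2, Psme1 and B2m. Libraries did not overlap in this direction for 25.1% of the 12299 genes tested, those with a mean of at least 0.5 FPKM, and all 10 genes passed this filter. FPKM counts the fragments of a gene and divides them by its exon length and by the total mapped in that library. With limma on log2(FPKM + 0.5), only Tap1 passed an adjusted p under 0.05, as did 0.48% of the tested genes in the higher direction. None of the 10 passed in the lower direction, against 0.0244% of the tested genes. At an unadjusted p under 0.05, 9 of the 10 were higher, all but B2m, against 12% of the tested genes, and 0 were lower, against 5.81%. The group means differed at least 2-fold without overlap in 4 of the 10, Psmb8, Psmb9, Psmb10 and Tap1, against 6.5% of the tested genes, and in 2 when control replicate 2 or 7KC replicate 1 was left out. In the lower direction this held for 0 of the 10 and 0.512% of the tested genes. The median log2 change was 0.87 over the 10 genes and -0.03 over all tested genes.

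**Figure D1:**
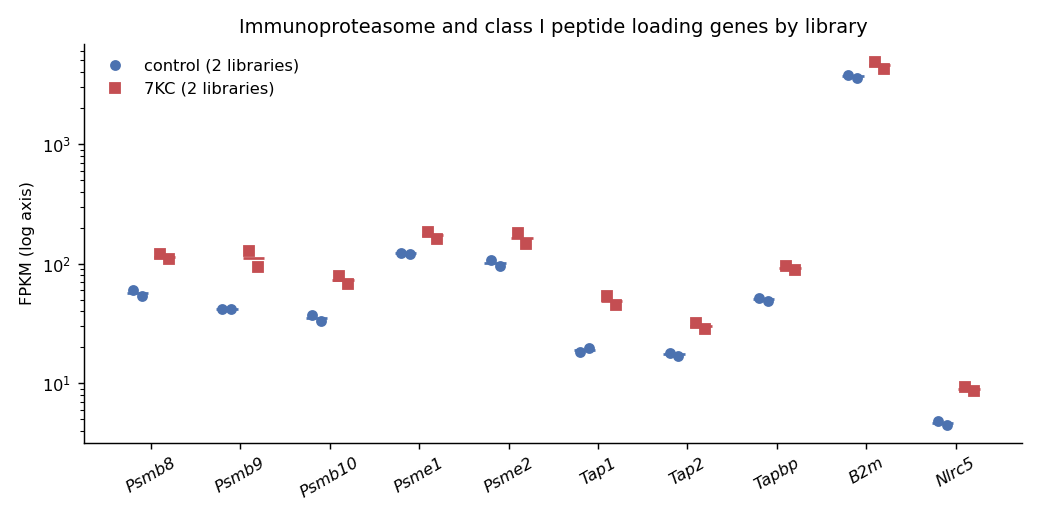
FPKM (log axis) of the 10 genes in each of the 4 libraries, with circles for control, squares for 7KC and short lines for group means. In every gene both squares lie above both circles, and B2m, at 3579 FPKM or more, lies far above the other 9.

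The catalytic immunosubunits were described first. Psmb8, which replaces Psmb5 and carries the chymotrypsin-like activity, was at 59.8 and 53.8 FPKM in control liver and at 121 and 109 FPKM with 7KC. Psmb9, which replaces Psmb6, was at 42.3 and 41.5 FPKM in control liver and at 128 and 94.8 FPKM with 7KC. Psmb10, which replaces Psmb7, was at 37.4 and 33.3 FPKM and at 78.8 and 67.8 FPKM. In each of the 3 the lowest 7KC library stood well above the highest control library, and the 7KC libraries of Psmb9 lay further apart than those of the others. The log2 changes were 1.01 for Psmb8 (SE 0.12, limma adjusted p 0.0512), 1.39 for Psmb9 (SE 0.17, adjusted p 0.0512) and 1.04 for Psmb10 (SE 0.13, adjusted p 0.0523), so none of the 3 passed. Their calls depended on the setting, since all 3 passed with a pseudocount of 1 FPKM, with each of the other scalings tried and without control replicate 1.

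The cap subunits were abundant in both groups. Psme1 was at 122 and 121 FPKM in control liver and at 183 and 161 FPKM with 7KC. Psme2 was at 107 and 95.4 FPKM and at 180 and 147 FPKM. Neither overlapped between the groups, and the ratios of the group means were 1.41 and 1.61. The log2 changes were 0.50 for Psme1 (SE 0.12, limma adjusted p 0.137) and 0.68 for Psme2 (SE 0.15, adjusted p 0.109). Psme2b, a close copy of Psme2 on chromosome 11 that could exchange reads with it, reached 2.21 FPKM at its highest.

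Tap1 rose from 18.3 and 19.8 FPKM in the control libraries to 53.4 and 44.8 FPKM with 7KC, a log2 difference of 1.34 (SE 0.13, limma adjusted p 0.0336). Tap2, its partner in the pump, was at 18 and 17.1 FPKM and at 32.3 and 28.3 FPKM, with a log2 difference of 0.77 (SE 0.12, adjusted p 0.0619). The partners thus started from about the same level and separated. Tap1 over Tap2 was 1.02 and 1.16 in control liver and 1.65 and 1.58 in the 7KC libraries. The ratios did not overlap, and the exact permutation p was 0.333 (2-sided), the smallest that 2 libraries against 2 can give. The call of Tap1 did not hold without control replicate 2, without 7KC replicate 1 or without 7KC replicate 2. These fits left 1 library in a group and called few of all tested genes. Its log2 change was between 1.21 and 1.54 under the 14 alternatives run, crossed pairing of replicates apart.

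Tapbp was at 52.2 and 48.6 FPKM in control liver and at 95.9 and 89.5 FPKM with 7KC, a log2 difference of 0.87 (SE 0.11, limma adjusted p 0.0523). Nlrc5, the transactivator, had the lowest level of the 10 genes, at 4.88 and 4.53 FPKM in control liver and at 9.29 and 8.65 FPKM with 7KC. Both genes were close to 2-fold higher, and their libraries within a group lay close together. The log2 change of Nlrc5 was 0.86 (SE 0.12, adjusted p 0.0549). B2m, among the most abundant transcripts of the class I pathway, was at 3811 and 3579 FPKM in control liver and at 4841 and 4247 FPKM with 7KC. Its ratio of means was 1.23 and its log2 change 0.30 (SE 0.20, adjusted p 0.49), with the largest standard error of the 10.

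**Figure D2:**
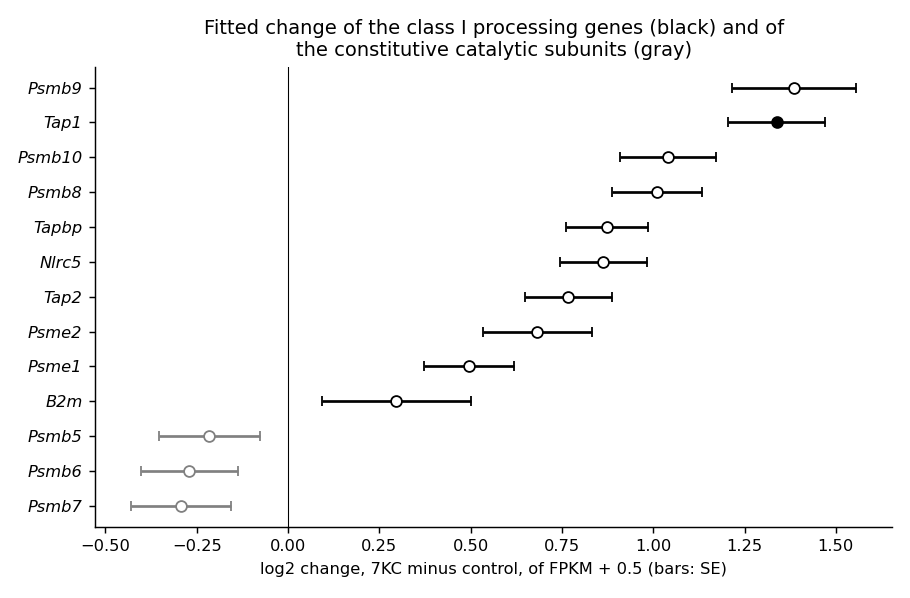
Fitted log2 change (7KC minus control) of the 10 genes in black and of the 3 constitutive catalytic subunits in gray, with bars of 1 SE and a filled symbol for an adjusted p under 0.05. The 10 genes run from 0.30 (B2m) to 1.39 (Psmb9), the constitutive subunits lie between -0.29 and -0.22, and only Tap1 is filled.

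In the control group the order of mean FPKM was B2m, Psme1, Psme2, Psmb8, Tapbp, Psmb9, Psmb10, Tap1, Tap2 and Nlrc5, and no neighbours in this order overlapped. In the 7KC group Psmb9 stood before Tapbp, and the other places were the same. There the libraries of Psme1 and Psme2, of Psmb8 and Psmb9, and of Psmb9 and Tapbp overlapped. All 10 genes were higher in 7KC replicate 1 than in 7KC replicate 2, and 9 were higher in control replicate 1 than in control replicate 2, Tap1 being the exception. The summed FPKM was also larger in replicate 1 of each group (619828 against 557138 with 7KC, 685028 against 671235 in the control). Psmb9 and Tap1, which share the stretch printed above, had a ratio to each other of 2.31 and 2.09 in the control and 2.40 and 2.11 in the 7KC libraries, and the groups overlapped.

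The level of each immunosubunit was next set against that of the constitutive subunit it replaces, a ratio that does not depend on how a library was scaled. The constitutive subunits had lower levels in both 7KC libraries than in both control libraries. Psmb5 was at 120 and 116 FPKM in control liver and at 112 and 92.3 FPKM with 7KC, Psmb6 at 124 and 124 FPKM and at 112 and 93.5 FPKM. Psmb7 was at 156 and 151 FPKM and at 137 and 114 FPKM. Their log2 changes were -0.22, -0.27 and -0.29 (SE 0.14, 0.13 and 0.14), and limma gave adjusted p-values of 0.46, 0.36 and 0.337, so none passed. Psmb8 made up 33.2% and 31.6% of the FPKM of Psmb8 plus Psmb5 in control liver and 51.9% and 54.1% with 7KC. Psmb9 made up 25.5% and 25.1% of Psmb9 plus Psmb6 in the control and 53.4% and 50.3% with 7KC. Psmb10 made up 19.3% and 18% of Psmb10 plus Psmb7, and 36.5% and 37.2%. In the 7KC libraries the transcripts of Psmb8 and Psmb9 thus exceeded those of their counterparts, and those of Psmb10 did not exceed Psmb7.

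Summed over the 3 pairs, the immunosubunit share was 25.9% and 24.7% in control liver and 47.6% and 47.5% with 7KC. The difference of 22.2 percentage points was many times the spread between replicates (SD 0.795 and 0.0617 percentage points, n = 2 each), and it stayed between 21.7 and 22.8 points when any single library was left out. The exact permutation p was 0.333, which is the smallest possible here. The sum of the 6 catalytic subunits was 539 and 520 FPKM in the control and 690 and 572 FPKM with 7KC. These are shares of transcripts, and subunit protein was not measured.

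**Figure D3:**
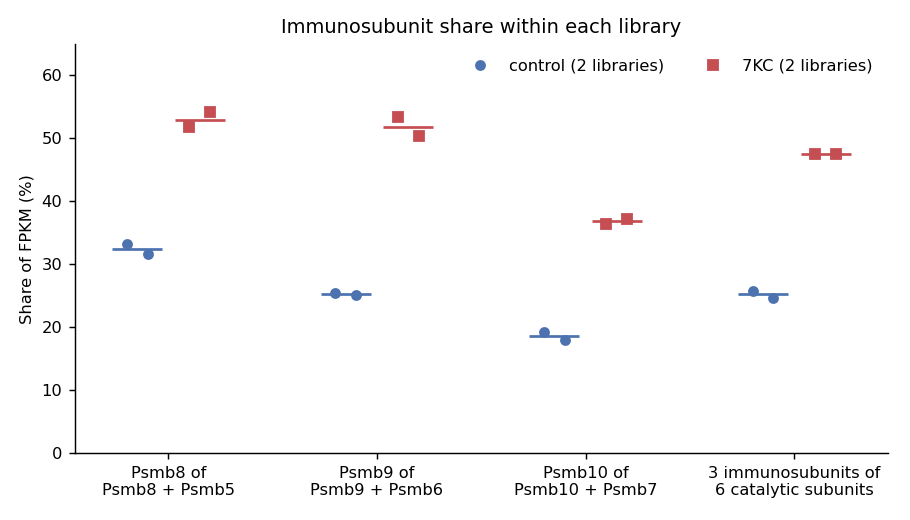
Share of FPKM (%) that each immunosubunit takes of the sum with its constitutive counterpart, and the 3 immunosubunits of all 6 catalytic subunits, by library, with lines for group means. For the sum, the control libraries sit at 24.7% and 25.9% and the 7KC libraries at 47.5% and 47.6%.

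On the deposited scale the rest of the proteasome did not share the higher levels. Among 32 constitutive subunits of the core and of the 19S regulatory particle, which recognizes ubiquitinated proteins, 31 had a log2 change below 0 and 25 had libraries that did not overlap, lower in the 7KC group, against 27.4% of all tested genes. The changes were small, between -0.38 and 0.07, with a median of -0.20. None passed with limma. At an unadjusted p under 0.05, 1 of the 32 was lower, against 5.81% of all tested genes. This was Psmc6, an ATPase of the base of the 19S particle (log2 change -0.28, SE 0.11, adjusted p 0.262). Psmd6, a lid subunit, had the lowest log2 change, -0.38 (SE 0.16, adjusted p 0.3), and in the core Psma4 and Psmb4 had the smallest p-values, with log2 changes of -0.23 and -0.21. This direction depended on the scaling. With every library brought to an equal total (TPM), the median over all tested genes became 0.16, and 9 of the 11 other core subunits and 9 of the 18 subunits of the 19S particle lay above 0, while the 3 constitutive catalytic subunits lay below it, 1 of them without overlap. Of the 32 subunits, 1 was then lower and 7 higher without overlap. Under quantile normalization 17 of the 32 were lower and 1 higher without overlap, and 5 of the 11 other core subunits lay above 0. The shares of all tested genes without overlap were not counted on the TPM scale or under quantile normalization.

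Assembly factors and other activators gave no call in 8 genes tested. At an unadjusted p under 0.05 with limma 0 passed, against 12% of all tested genes higher and 5.81% lower. The median log2 change of the 8 was -0.11, which became 0.09 on the TPM scale. Psmg3 and Psmg1, assembly chaperones, had the smallest p-values, with log2 changes of -0.29 and -0.22. None of the 6 cytosolic peptidases passed with limma, and their median of -0.10 also became 0.09 on the TPM scale. Lap3, an aminopeptidase, was at 182 and 184 FPKM in control liver and at 150 and 126 FPKM with 7KC. Its log2 difference was -0.41 (SE 0.13, adjusted p 0.223). It had the only unadjusted p under 0.05 of the 6, against 5.81% of all tested genes lower at that threshold. Thop1, which degrades peptides, was at -0.24 (SE 0.14, adjusted p 0.434).

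Of 8 genes of peptide loading and trimming in the endoplasmic reticulum, none passed with limma. At an unadjusted p under 0.05, 1 was higher, near the 12% of all tested genes. This was Tapbpl, a relative of tapasin that edits class I peptides, at 17 and 13.5 FPKM in control liver and at 24.7 and 22.4 FPKM with 7KC (log2 change 0.61, SE 0.15, adjusted p 0.132). The general chaperones that work beside tapasin had values in the other direction, and 5 of the 8 genes lay below 0 under each scaling. Calr was at 620 and 620 FPKM in control liver and at 539 and 441 FPKM with 7KC, and Canx and Pdia3 had log2 changes of -0.28 each. Hspa5, the main chaperone of the endoplasmic reticulum, had the lowest log2 change, -0.78 (SE 0.34, adjusted p 0.317). The classical heavy chains H2-K1 and H2-D1, which share sequence with other class I genes, had log2 changes of 0.32 (SE 0.18, adjusted p 0.39) and 0.53 (SE 0.15, adjusted p 0.18). B2m over their sum was 1.69 and 1.84 in the control and 1.74 and 1.54 in the 7KC libraries, and the groups overlapped.

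Among 8 factors of the class I and class II promoters none passed with limma. At an unadjusted p under 0.05, 2 were higher, against 12% of all tested genes. Ciita, the transactivator of class II genes and a relative of Nlrc5, was at 2.97 and 2.29 FPKM in control liver and at 7.70 and 10.1 FPKM with 7KC (log2 change 1.58, SE 0.19, adjusted p 0.0512). Rfx5, which binds the X box, had a log2 difference of 0.50 (SE 0.14, adjusted p 0.173), and Rfxank, of the same complex, had -0.36 (SE 0.15, adjusted p 0.302). Of the DNA-bound complex around Nlrc5, 1 subunit was thus nominally higher and another had a value in the other direction that did not pass.

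Of 12 genes of the interferon-γ axis 2 rose at an adjusted p under 0.05, against 0.48% of all tested genes. At an unadjusted p under 0.05, 8 were higher, against 12% of all tested genes. Among those that rose was Irf8, an interferon-regulated factor of myeloid cells, from 10.6 and 8.16 FPKM to 26.8 and 26.2 FPKM (log2 change 1.46, SE 0.15, limma adjusted p 0.0369). The call of Irf8 did not hold without control replicate 2, without 7KC replicate 1 or without 7KC replicate 2, in fits that left 1 library in a group. Ifng itself was low, at 0.408 and 0.362 FPKM in control liver and at 2.99 and 1.38 FPKM with 7KC (log2 change 1.53, SE 0.32, adjusted p 0.104). Irf1, which binds the promoters of several immunoproteasome genes, was at 32.6 and 23.1 FPKM and at 72.4 and 52.4 FPKM (log2 change 1.15, SE 0.23, adjusted p 0.0965). Irf2, which competes with Irf1 for the same sites, overlapped between the groups (log2 change -0.27, SE 0.19, adjusted p 0.495).

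Of 5 ubiquitin-like genes and their enzymes, 1 passed as higher, against 0.48% of all tested genes. All 5 were higher without overlap, against 25.1% of all tested genes. Ubd, which encodes FAT10, a modifier that sends proteins to the proteasome, rose from 19.9 and 15.3 FPKM to 164 and 143 FPKM (log2 change 3.10, SE 0.16, limma adjusted p 0.0244). The call of Ubd was lost without 7KC replicate 1 and without 7KC replicate 2, in fits that left 1 library in that group. Isg15, another such modifier, had a log2 difference of 0.95 (SE 0.16, adjusted p 0.0704), and Usp18, which removes it, had the lowest of the list, 0.69 (SE 0.32, adjusted p 0.331).

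**Figure D4:**
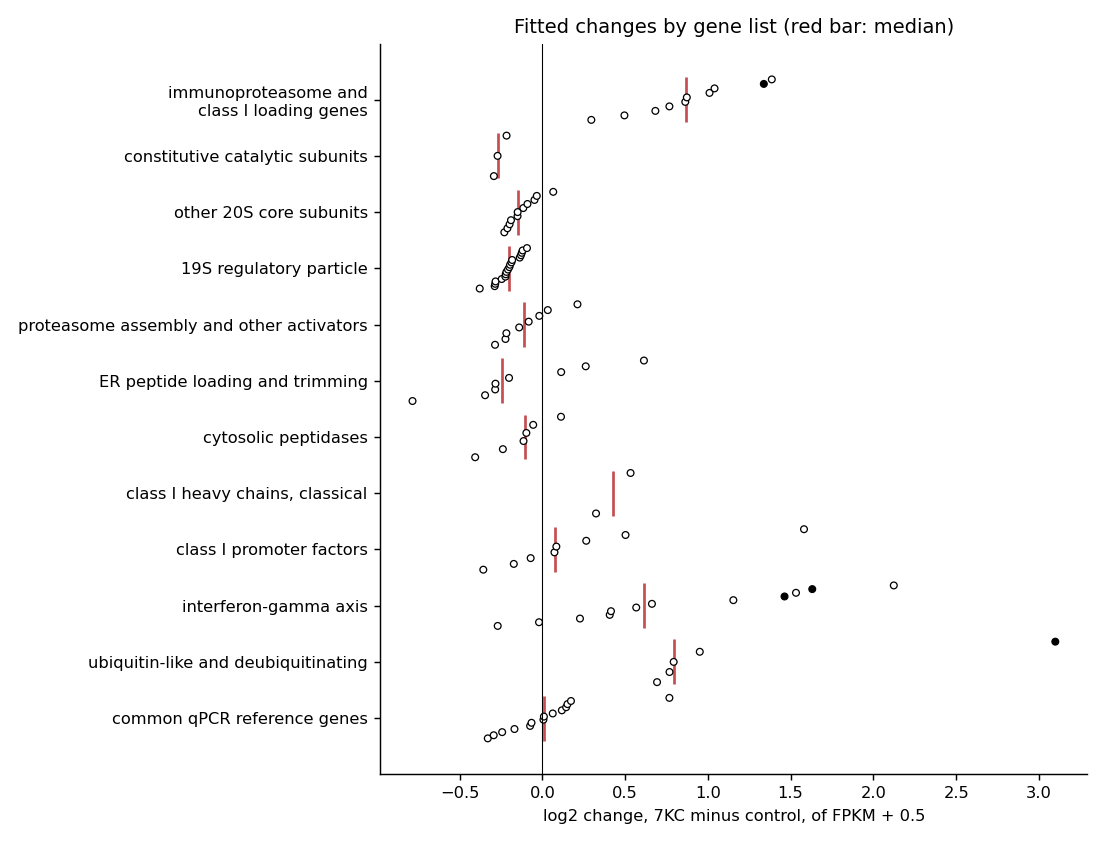
Fitted log2 change (7KC minus control) of every tested gene by list, each point 1 gene, filled where the adjusted p was under 0.05, with red bars at list medians. The class I processing genes (median 0.87) lie to the right of the constitutive proteasome lists, whose medians are between -0.27 and -0.15 on the deposited scale.

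The 5 other tested genes whose profile over the 4 libraries was closest to the mean profile of the 10 were Fen1, BC147527, Trerf1, Icosl and Rnf19b. Closeness was the root-mean-square difference of log2(FPKM + 0.5) after centring each gene, and it was between 0.0412 and 0.0535 for these genes. Among the 10 themselves the difference from their mean profile ran from 0.0401 for Tapbp and 0.0405 for Nlrc5 to 0.29 for B2m. With 4 points this is a description of shape only. Icosl, a costimulatory ligand, was at 1.67 and 1.56 FPKM in control liver and at 3.54 and 3.35 FPKM with 7KC.

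Markers of leukocytes were higher in the same libraries as the 10 genes. Ptprc, which encodes the pan-leukocyte antigen CD45, was at 8.47 and 5.65 FPKM in control liver and at 15.5 and 20.6 FPKM with 7KC. Against a share of all tested genes of 25.1% higher and 27.4% lower without overlap, all 6 leukocyte markers and all 12 markers of T and NK cells were higher, and so were 6 of 7 for monocytes and recruited macrophages. The summed leukocyte level was 266 and 171 FPKM in the control and 503 and 564 FPKM with 7KC, that of T and NK cells 21.6 and 15.2 FPKM and 56.9 and 45.9 FPKM, and that of monocytes and recruited macrophages 67.7 to 99.7 and 255 to 268 FPKM. Of the other lists, resident Kupffer cells had 4 of 7 markers higher and 1 lower, dendritic cells 3 of 6 higher, B cells 1 of 5 higher with Pax5 at 0 in at least 1 library, and neutrophils 1 of 4 higher. The counts for B cells and neutrophils lie near the share of all tested genes. Hepatocyte markers were lower without overlap in 8 of 9 genes, and their sum was 58282 to 68951 FPKM in the control and 36979 to 49359 FPKM with 7KC. Endothelial cells had 0 of 6 markers without overlap, stellate cells 3 of 6 lower, and cholangiocytes 1 of 5 higher and 1 lower. These marker counts are on the deposited scale only, and lower counts can depend on it. The summed FPKM of a library was 685028 and 671235 in the control and 619828 and 557138 with 7KC. No marker in these lists passed as higher with limma.

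The 10 genes were divided by each leukocyte marker in the same library. Over Ptprc 0 of the 10 were higher in the 7KC group without overlap, 6 overlapped and 4, Psme1, Psme2, Tap2 and B2m, were lower. Of all tested genes, 1.44% were higher and 91.8% lower over Ptprc. Over the 6 leukocyte markers, between 1 and 7 of the 10 were lower, against 83.4% to 91.8% of all tested genes. None was higher except over Lcp1, an actin-bundling protein of leukocytes, where Tap1 and Psmb9 were, against 4.74% of all tested genes. Over the 12 markers of T and NK cells between 2 and 10 of the 10 were lower, against 81.4% to 97.3% of all tested genes. The only ones higher were Psmb9 and Tap1, over Klrb1c, a receptor of NK cells, against 1.53% of all tested genes. Some of these markers were low in control liver, with Prf1 at 0.22 and 0.0781 FPKM and Klrb1c at 0.336 and 0.358 FPKM. Ncr1 did not reach the mean of 0.5 FPKM and was not tested. Relative to Polr2a, a subunit of RNA polymerase II with a log2 change of 0.12, all 10 were higher without overlap, as before division. The share of all tested genes higher over Polr2a was not counted. Each of the 10 genes was higher in 7KC replicate 1 than in replicate 2, as were 9 of the 12 markers of T and NK cells, whereas all 6 leukocyte markers were higher in replicate 2. This order is on the deposited scale, where the summed FPKM was 619828 in 7KC replicate 1 and 557138 in 7KC replicate 2. The share of all tested genes with the same order was not counted. In these bulk samples a different number of cells of a type and a different amount of RNA per cell cannot be told apart, and the part of leukocytes in the higher levels was not tested.

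B2m was examined once more, because the study's methods name it as the reference gene for quantitative PCR of the liver. Of 14 other common reference genes, 4 were higher and 3 lower without overlap, near the shares of all tested genes (25.1% and 27.4%). On the TPM scale 8 were higher and 2 lower, and the shares of all tested genes on that scale were not counted. The median log2 change of the 14 was 0.01 as deposited and 0.21 on the TPM scale, against -0.03 and 0.16 over all tested genes. Actb, of the cytoskeleton, had the largest, 0.77 (SE 0.14, limma adjusted p 0.0774), with 328 and 290 FPKM in the control and 540 and 512 FPKM with 7KC. Sdha, an enzyme of respiration, had the lowest, -0.33 (SE 0.13, adjusted p 0.287), and its libraries did not overlap. None of the 14 passed. At an unadjusted p under 0.05 with limma, 1 was higher (Actb) and 1 lower, against 12% and 5.81% of all tested genes. The change of 0.30 in B2m was second to that of Actb, and its adjusted p was between 0.129 and 0.851 under the alternatives.

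Because B2m was higher in both 7KC libraries, dividing by it lowers the ratio between the groups for any gene. The size of this shift is given for 3 cytokine genes. Tnf was at 2.13 and 0.826 FPKM in control liver and at 5.74 and 4.10 FPKM with 7KC, and the ratio of means was 3.32 as deposited and 2.72 after division by the FPKM of B2m in each library. For Tgfb1 these ratios were 2.03 and 1.69, and for Il1b 2.11 and 1.75. In each gene both 7KC libraries stayed above both control libraries after the division. These ratios come from RNA sequencing and not from quantitative PCR.

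**Figure D5:**
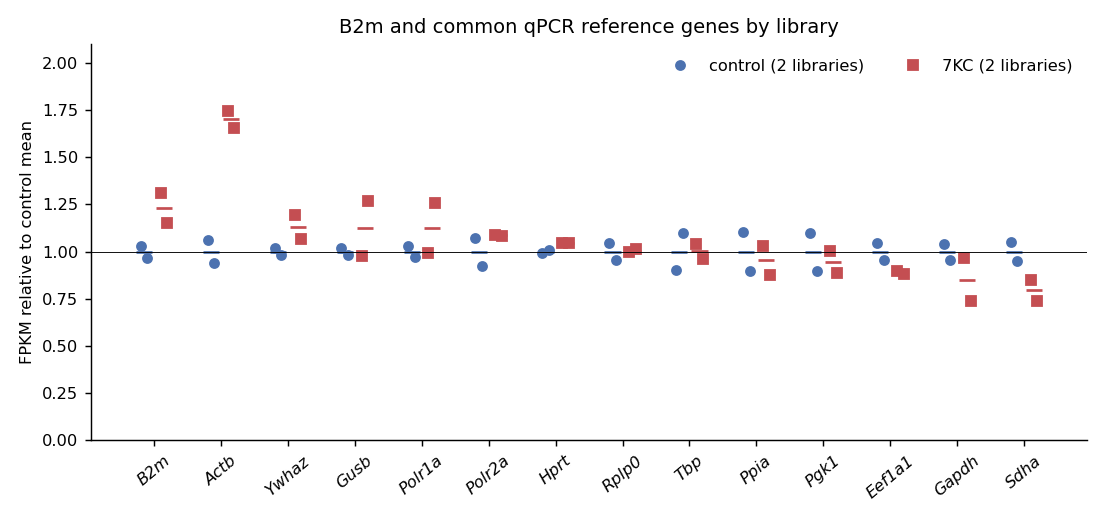
FPKM of B2m and of common reference genes in each library, relative to the control mean of the gene, with circles for control, squares for 7KC and short lines for group means. B2m had a mean of 1.23 times its control mean in the 7KC group, Actb 1.70 times and Sdha 0.796 times.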

How the data were processed

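The authors prepared stranded mRNA libraries from total liver RNA, sequenced them as single-end reads and mapped them to mm10 with TopHat and Bowtie2. The submitters' processing notes list TopHat2 2.1.1, Bowtie2 2.2.8, SAMtools 0.1.18 and Cuffdiff 2.2.1, and the study's methods give other versions of some of these. The deposited values are FPKM, 1 value per symbol and library, with the annotation and the strand and multi-read settings not given in the sources used here. FPKM is relative to all mapped reads, so a few abundant genes can move all others.

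Values were compared as log2(FPKM + 0.5) in genes whose mean reached 0.5 FPKM, with limma 3.58.1 in R 4.3.3 (eBayes with a trend, group as the only term, 2 residual and 3.27 prior degrees of freedom) and Benjamini-Hochberg adjustment over 12299 genes. Fold changes of low genes are understated on this scale. The fit was tested on simulated data. The exact permutation test has 3 splits and cannot go below 0.333.

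From the steps of low values, with GENCODE M21 transcript lengths, the depth was 13600000 to 17000000 mapped reads per library. Of the values of up to 10 reads, 72.3% to 75% came out within 0.1 of a whole read. At the shortest coding transcript of each gene, the lowest value among the 10 genes (Tap2) stood for 42 reads, and B2m for at least 32649. These reads describe depth only and entered no test.

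The 10 genes and the lists were chosen with earlier results of these data known. Besides the 10 and their 3 counterparts, the heavy chains and the 3 cytokine genes, each list named the 2 genes with the smallest p and the lowest log2 change. Calr, Canx, Pdia3, Ifng, Irf1, Ptprc, Lcp1, Klrb1c, Prf1, Ncr1, Pax5, Polr2a and Psme2b were named outside this rule, after their values were seen. Of the list genes, Ly6g was not matched, and Nrdc was read under its older symbol Nrd1. Promoter sequences were from RefSeq (GRCm38.p6). Some genes that this rule names are not reported here.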

Additional observations from a re-analysis of the deposited data

How the results depend on the processing

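Each of the 10 genes kept a log2 change above 0 under 14 alternatives, the crossed pairing apart, whereas the number past the threshold ranged widely. The main setting called 1 gene (Tap1), and 0.48% of all tested genes higher. With a pseudocount of 1 FPKM, median ratio scaling or quantile normalization, 5 were called (Psmb8, Psmb9, Psmb10, Tap1 and Tapbp each time). In these settings 0.903%, 0.764% and 0.423% of all tested genes were called higher. On the TPM scale 9 were called, all but B2m, against 3.24% of all tested genes, and the median of the 10 was 1.07. None was called without a filter on low values (adjusted p of Tap1 0.119), where 0 of all 16858 genes were called higher. Without a trend in the prior variance none was called either (0.0603), against 0.317% of all tested genes. Leaving out a single library gave between 2 and 4 genes at least 2-fold higher without overlap (2 without control replicate 2 or 7KC replicate 1). The median was then 0.82 to 0.92. Calls among the 10 and among all tested genes varied between these fits, which left 1 library in a group. Of 95 other pathway genes, 3 were called (Irf8 and Ubd among them), against 0 without a filter and 11 on the TPM scale. The same shares of all tested genes apply to these counts.

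The labels number the libraries of each group 1 and 2 without saying what a number shares. Over 12299 genes the difference between replicates 1 and 2 correlated at -0.141 between the groups. With 1 difference per group this cannot show whether the numbers pair the libraries. The replicate block left 1 residual degree of freedom fewer. With it 0 of the 10 genes, 0 of the pathway genes and 0 of all 12299 tested genes were called. With the crossed pairing, chosen after seeing the data, 7 and 7 were called, and 4.48% of all tested genes were called higher. The cause of the other differences between settings was not tested. At the shortest coding transcript of each gene, the depth leaves at least 42 reads behind each value of the 10 genes. For Tap2, 42 reads mean a counting error of 15.5% (coefficient of variation). Its longest coding transcript gave up to 1424 reads, so the error depends on the transcript assumed.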
